A study of Mus musculus with 20 samples.

Results

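Upstream antisense m6A peaks are peaks called after pull-down with an antibody to N6-methyladenosine (m6A). They lie upstream of a gene's start, on the strand opposite to the gene. Whether their RNA begins at that gene's promoter was not tested. A peak was taken as a member when its summit lay within 2 kb upstream of a transcription start of a protein-coding gene, on the opposite strand, and inside no annotated gene of its own strand. Merged over the 10 peak lists, 907 regions of 87498 held such a peak, next to 790 coding genes. Of the 907 regions, 531 lay outside all annotated genes and 376 lay inside a gene of the opposite strand. In 268 of these 376 the enclosing gene was the paired gene itself, because the start in question lay within it.

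Most mammalian promoters start RNA polymerase II in both directions. The upstream antisense transcripts, also called PROMPTs or uaRNAs, are short, seldom spliced and soon degraded by the nuclear exosome, so they are seen best in nuclear or chromatin-bound RNA. METTL3, with METTL14, writes m6A on nascent RNA, preferring a GGAC core. YTHDC1 is the nuclear protein that binds m6A, and it acts in splicing, export and the turnover of chromatin-bound RNA.

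The study used antibody pull-down to profile m6A in the RNA bound to chromatin in C57BL/6 mouse embryonic stem cells, which are cultured pluripotent cells. All groups shared the medium, which held 15% serum, the cytokine LIF, the GSK3 inhibitor CHIR99021 (at 3 μM) and the MEK inhibitor PD0325901 (at 1 μM). The groups were the Mettl3 knockouts KO1 and KO2 with their Mettl3 control, and the Ythdc1 conditional knockout (cKO) with its Ythdc1 control, with 2 immunoprecipitated libraries each. Neither the alleles, nor the Cre or its inducer, nor whether KO1 and KO2 are clones, nor whether libraries came from separate cultures is stated, so a p-value here speaks of these libraries alone, whose spread may be purely technical. In bulk RNA, fewer cells with a transcript and less of it per cell cannot be told apart. The 10 input samples were not analysed here. The lists held 40959 to 46735 peaks each on the chromosomes used, and those of the Mettl3 knockouts held 40959 to 44496. Whether a peak called in a Mettl3 knockout marks m6A was not tested. Depth is given only by the most common background pile-up behind the peak p-values, 14.92 to 20.03 reads on the plus strand, highest in the cKO. KO1 stood apart from KO2 in most measures below, so the lines are also given one by one.

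Sequence could be read for 93 of the 907 regions (10.25%), those whose summit lay 34 to 219 bases upstream of a start in the RefSeq promoter table (GRCm38.p6, the assembly of mm10). Each window below is 61 nt on the strand of the antisense RNA, 5′ to 3′, with GGAC in capitals and coordinates in mm10. It is centred on a single summit, that of the member peak ranking highest by fold enrichment within its own library's list. Summits of other libraries may lie elsewhere, so a window does not show a summit common to all libraries. Of the 19 windows from regions with a peak in all 10 libraries, 16 lay outside all genes, and 6 of these 16 held GGAC. These 6 are shown from regions that held a peak in every library, and Pcna, the replication clamp, as an example of the 10 without the motif.

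Rnpc3 (chr3:113630220-113630280, plus strand): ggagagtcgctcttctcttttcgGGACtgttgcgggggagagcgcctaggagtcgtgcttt
Nvl (chr1:181144373-181144433, plus strand): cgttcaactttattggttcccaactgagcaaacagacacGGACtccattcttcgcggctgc
Plaa (chr4:94603307-94603367, plus strand): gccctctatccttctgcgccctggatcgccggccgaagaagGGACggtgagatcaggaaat
H2-M5 (chr17:36989626-36989686, plus strand): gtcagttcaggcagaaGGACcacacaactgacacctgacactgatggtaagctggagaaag
Ncl (chr1:86359540-86359600, plus strand): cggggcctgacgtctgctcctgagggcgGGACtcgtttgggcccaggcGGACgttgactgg
Top1 (chr2:160645677-160645737, minus strand): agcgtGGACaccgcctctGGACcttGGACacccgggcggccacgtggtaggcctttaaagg
Pcna (chr2:132253321-132253381, plus strand): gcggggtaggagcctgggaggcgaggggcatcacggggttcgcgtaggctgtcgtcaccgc

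The next windows show members that differed between groups. Rbl1 had a peak only in the 4 control libraries, Pam16 had none in KO1, Ppp2r1a had peaks only in the Ythdc1 experiment, Zc3h7a only in the cKO and Cipc only in the Ythdc1 control. They are examples and do not show how often such members hold GGAC. The windows of Ddx5, Gtf3c2, Il17d and Smg9, with the same pattern as Pam16, lacked it. So did Cox5a, Dennd6b, Msh6, Patz1 and Zfp292, with the pattern of Ppp2r1a, and Baz1b, Neil1 and Rnh1, with that of Cipc.

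Rbl1 (chr2:157204704-157204764, plus strand): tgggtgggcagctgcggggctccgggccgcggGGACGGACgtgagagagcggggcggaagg
Pam16 (chr16:4624984-4625044, plus strand): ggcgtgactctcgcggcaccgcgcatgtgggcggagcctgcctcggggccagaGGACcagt
Ppp2r1a (chr17:20945242-20945302, minus strand): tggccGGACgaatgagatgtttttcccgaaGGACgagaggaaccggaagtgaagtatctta
Zc3h7a (chr16:11176420-11176480, plus strand): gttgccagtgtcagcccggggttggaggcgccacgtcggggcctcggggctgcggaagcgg
Cipc (chr12:86946927-86946987, minus strand): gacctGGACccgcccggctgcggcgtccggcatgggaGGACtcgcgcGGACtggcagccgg

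GGAC was searched as those 4 letters on either strand. Over the peaks of all libraries outside genes, 31.1% of 289 windows held it on the antisense RNA strand and 22.8% on the gene strand. A fixed window centred 125 bases upstream of all 32851 promoters in the table held it in 20.6% on the antisense strand and 19.5% on the gene strand. GC content was 59.3% in the windows outside genes and 53.1% in the fixed ones, the windows of different libraries share regions, and the part of base composition was not tested. GGACT, which contains GGAC, stood on the antisense strand in 11.8% of these windows outside genes and in 6.39% of the fixed ones. In the 89 windows inside an opposite-strand gene, GGAC stood in 37.1% on the antisense strand and 20.2% on the gene strand, while GGACT stood in 4.49% and 10.1%. On the antisense strand, the splice donor letters GGTAAG stood in 0.346% of windows outside genes, against 0.935% of the fixed ones. The polyadenylation letters AATAAA stood in 1.38%, against 2.26%. Such small shares of 289 windows rest on very few windows, so they cannot show a difference from the fixed ones. Over whole promoters, GGAC on the antisense strand stood in 70.3% of the 842 promoters of paired genes and in 59.3% of the 32009 other promoters, at a GC content of 61.2% and 53.0%. A match is a run of letters in a window and does not place an m6A site.

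Upstream antisense peaks were concentrated next to the start. Summed over the 10 libraries, 2822 opposite-strand peaks lay within the first kb, 863 in the second and 562 to 734 in each kb from 2 to 10 kb. On the same strand as the gene, also outside own-strand genes, the sums were 2128, 747 and 654 to 814. The median distance per library ran from 424.5 to 584.5 bp, and 680 of the 907 regions had their summit within 1 kb. Counted over all libraries, 79 peaks lay in the last 100 bp inside the 2 kb limit and 59 in the first 100 bp beyond it. For 692 of the 907 regions the summit lay within 2 kb upstream of the most upstream start of a coding gene on the opposite strand.

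**Figure D1:**
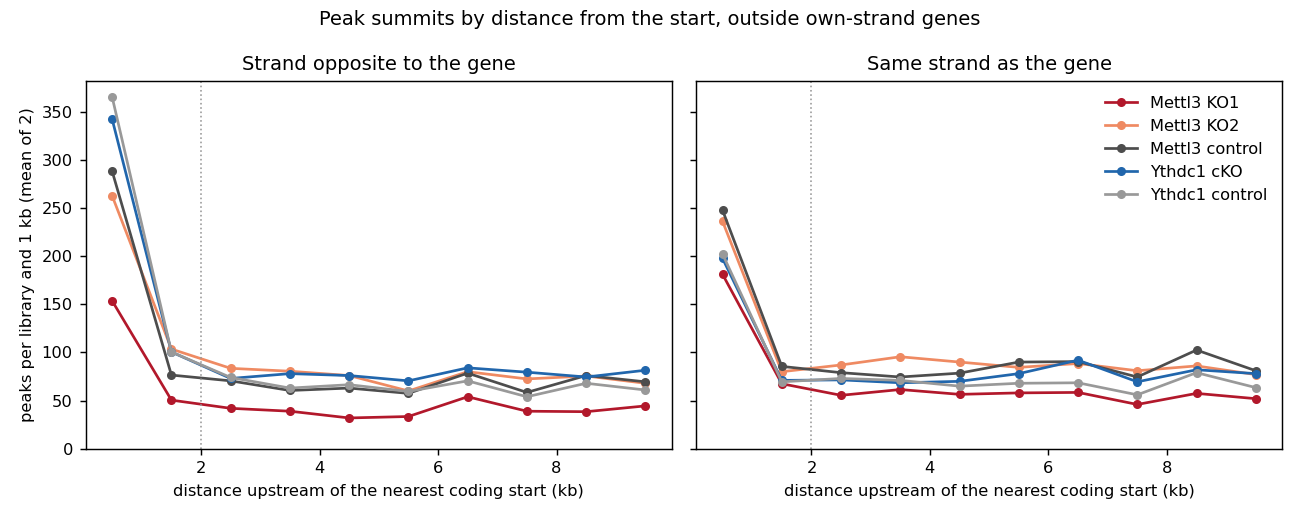
Mean number of peaks per library in each 1 kb step upstream of the nearest coding start, on the strand opposite to the gene (left) and on the same strand (right), for each group of 2 libraries. The dotted line marks the 2 kb limit. Both strands peak in the first kb, and KO1 runs lowest at every distance on the opposite strand.

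The enrichment next to the start, a ratio chosen as a measure after this profile was seen, was lower in both Mettl3 lines than in their control, but its parts differed between the lines. It is the number of opposite-strand peaks in the first kb over the mean per kb from 2 to 10 kb. It was 3.98 and 3.64 in KO1 and 3.44 and 3.62 in KO2, against 4.32 and 4.31 in the Mettl3 control. In the first kb KO1 held 159 and 148 opposite-strand peaks and KO2 held 267 and 258, against 287 and 289 in the control. From 2 to 10 kb KO1 held 40.0 and 40.6 per kb and KO2 held 77.6 and 71.4, against 66.4 and 67.1 in the control. Further out KO1 thus lay below the control and KO2 above it, while both lay below it in the first kb. In the ratio, all 4 knockout libraries lay below both controls, with means of 3.67 ± 0.223 (SD, n = 4) and 4.31 ± 0.013 (SD, n = 2). The exact permutation test gave p = 0.0667, the smallest that 4 against 2 libraries allow, and p = 0.133 without peaks near gene ends (difference -0.827). On the same strand the ratio averaged 3.00 ± 0.320 in the Mettl3 knockouts and 2.95 ± 0.138 in the control, and the groups overlapped (exact permutation p = 0.8).

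The cKO libraries gave 4.21 and 4.68 on the opposite strand, against 5.56 and 5.76 in the Ythdc1 control. These groups did not overlap either, and 2 against 2 libraries cannot go below an exact permutation p of 0.333, the value found. The count further out moved the other way, with 79.9 and 74.4 opposite-strand peaks per kb from 2 to 10 kb in the cKO, against 66.8 and 62.4 in the control. In the first kb the cKO held 336 and 348 such peaks, against 371 and 359 in the control.

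The first comparison asked whether upstream antisense peaks were fewer without METTL3, and the lines gave different answers. KO1 held 207 and 201 member peaks and KO2 held 372 and 360, against 364 and 365 in the Mettl3 control. As a share of each library's peaks these were 0.505% and 0.490% in KO1 and 0.836% and 0.841% in KO2, against 0.804% and 0.781% in the control. KO1 lay below the control in both libraries and KO2 above it in share, while KO2 and control overlapped in number. Pooled, the 4 knockout libraries differed from the control by -0.124 percentage points (exact permutation p = 0.467) and by -79.5 peaks (exact permutation p = 0.333), less than the spread between the lines.

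Strand bias gave the same split. The ratio of opposite-strand to same-strand peaks upstream of coding starts was 0.802 and 0.841 in KO1 and 1.16 and 1.15 in KO2, against 1.09 and 1.10 in the Mettl3 control. Same-strand peaks outnumbered antisense ones only in KO1. The difference of all 4 knockout libraries from the control was -0.105 (exact permutation p = 0.6). Across the whole list KO1 also had fewer intergenic peaks, 9.58% and 9.45%, against 14.4% and 13.6% in KO2 and 16.3% and 16.5% in the control.

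The second comparison asked the same of the m6A reader YTHDC1. The cKO held 438 and 447 member peaks, 0.963% and 0.980% of its peaks, against 474 and 457, or 1.09% in each library, in the Ythdc1 control. Both cKO libraries lay below both controls, and the differences of the means were -23 peaks and -0.116 percentage points, each at an exact permutation p of 0.333, the smallest possible. Intergenic peaks as a whole moved the other way, at 22.2% and 21.7% in the cKO and 10.8% and 10.6% in the control. The strand ratio was 1.64 and 1.66 in the cKO and 1.68 and 1.75 in the control, above 1 in every library. The Ythdc1 control also held 101 more member peaks on average than the Mettl3 control, 465.5 against 364.5, so controls are not pooled.

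**Figure D2:**
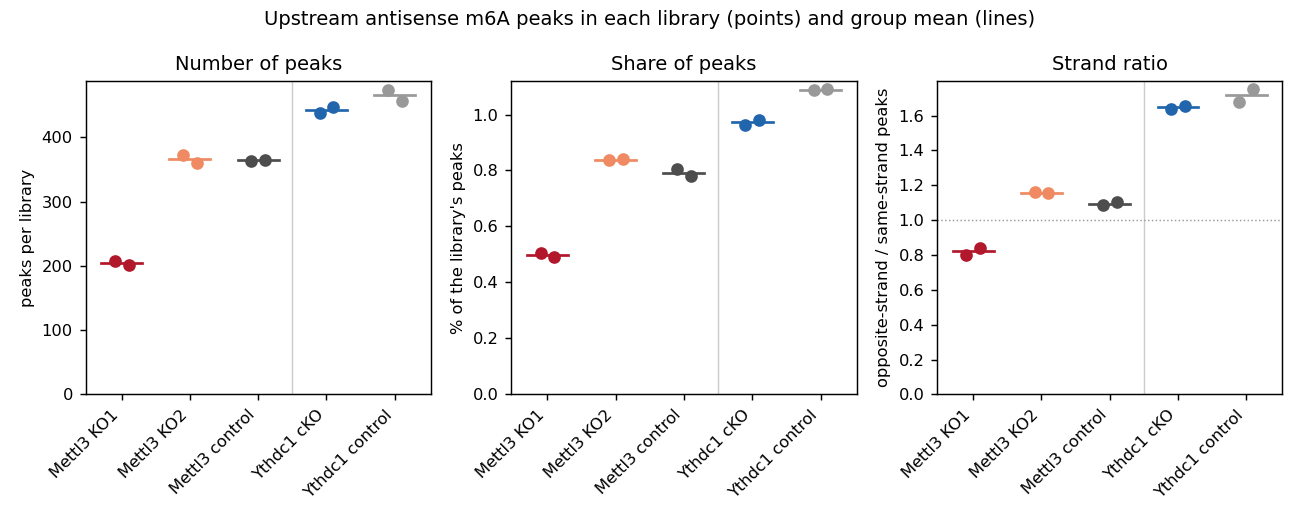
Upstream antisense peaks in each library (points) with group means (lines): their number, their share of the library's peaks in percent, and the ratio of opposite-strand to same-strand upstream peaks (dotted line at 1). KO1 lies lowest in all 3 panels, KO2 lies near its control, and the Ythdc1 libraries lie highest.

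Region by region, loss in the Mettl3 knockouts was close to the background of the whole list. For each comparison peaks were merged into regions per strand. A control region, one with a peak in both controls, counted as lost where every knockout library lacked it and as kept where all had it. A region counted as gained where all knockout libraries had it and neither control did. Of 327 member regions in both Mettl3 controls, 54 were lost (16.5%). The lost share was 13.1% of all regions, 16.7% of same-strand upstream regions and 26.8% of intergenic ones. The kept share was 40.1% (131 regions), below the 57.7% of all regions and near the 36.1% of intergenic ones. Of 147 member regions present in all 4 knockout libraries, 8 were gained (5.44%), where 4.38% of all regions were. Losses were spread over members outside genes (26 of 185, 14.1%) and inside an opposite-strand gene (28 of 142, 19.7%). Counts depend on how many libraries must agree: 90 and 96 were lost without either Mettl3 control library, and 14 and 13 gained without either KO1 library.

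Taken line by line the members departed further from the background in the losses of KO1 and in the gains of both lines. The lost share of KO2 lay close to the background. In KO1, 131 of the 327 control regions were lost (40.1%), against 24.2% of all regions, 26.1% of same-strand upstream regions and 48.0% of intergenic ones. KO1 gained 12 of 171 regions (7.02%), against 12.3% of all regions, but near the 8.07% of same-strand upstream regions and 8.56% of intergenic ones. In KO2, 72 were lost (22.0%), against 18.4% of all regions, 23.4% of same-strand upstream regions and 30.2% of intergenic ones. KO2 kept 209 (63.9%), against 70.4%, 64.9% and 55.7% in the same order. KO2 gained 75 of 314 regions (23.9%), where 14.7% of all regions were gained, 18.9% of same-strand upstream regions and 18.6% of intergenic ones. KO1 lost more members than KO2 did and gained fewer. Both lines share the same 2 control libraries.

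In the Ythdc1 comparison the lost and kept shares of the members were near those of the list, and the gained share was lower. Of 393 member regions in both Ythdc1 controls, 65 were lost (16.5%, background 17.9%) and 280 were kept (71.2%, background 72.2%). Of 374 present in both cKO libraries, 57 were gained (15.2%), against 28.0% of all regions and 59.3% of intergenic ones. Same-strand upstream regions gave 17.9%. Without either Ythdc1 control library 117 and 125 were lost, and without either cKO library 101 and 93 were gained.

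**Figure D3:**
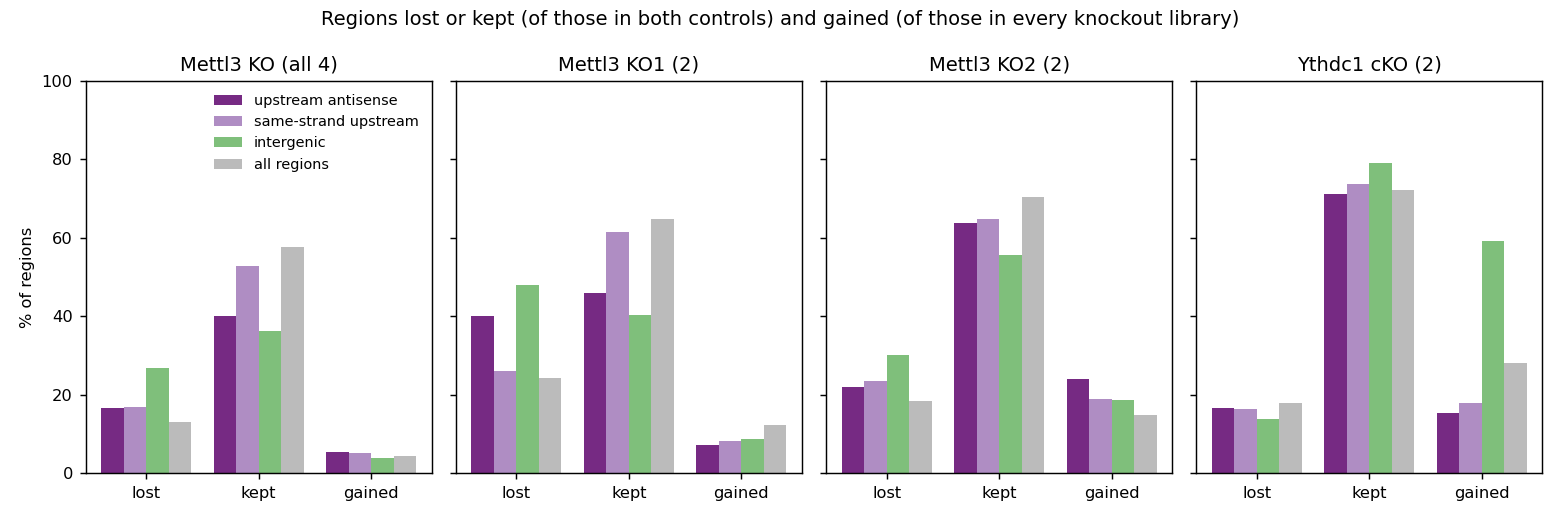
Share of regions lost or kept (of those with a peak in both controls) and gained (of those with a peak in every knockout library), in percent, for upstream antisense, same-strand upstream, intergenic and all regions. Upstream antisense losses reach 40.1% in KO1, and gains of intergenic regions in the cKO reach 59.3% while upstream antisense gains stay at 15.2%.

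Absence followed peak height. Height was the lower of the within-list percentiles of the authors' fold enrichment in the 2 controls, cut into 5 equal bins over all control regions. Per Mettl3 knockout library, 38.1% ± 10.4 of the member control regions had no peak, against 26.9% ± 3.35 of all regions and 45.6% ± 9.66 of intergenic ones (SD, n = 4). The members were absent more often than all regions in 4 of 4 libraries, by 11.2 ± 7.12 points, and less often than intergenic regions in 4 of 4, by 7.49 ± 1.04 points. Each had an exact sign-flip p of 0.125, the smallest 4 libraries allow. The test cannot decide the question, because the 4 libraries share the same control regions, picked by their peaks in the 2 controls. The libraries also come from only 2 lines, so their signs are not independent. In the cKO 22.6% ± 0.360 were absent, against 22.8% ± 0.489 of all regions and 17.4% ± 0.178 of intergenic ones (SD, n = 2).

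Within bins, the members of KO1 were absent at 72.6%, 72.8%, 52.0%, 26.9% and 2.73% (lowest to highest bin). KO2 gave 52.4%, 43.9%, 34.0%, 10.8% and 1.82%. All regions gave 38.5%, 46.3%, 37.1%, 20.3% and 6.43% in KO1, and 38.1%, 38.1%, 28.6%, 13.2% and 2.11% in KO2. Intergenic regions gave 69.4%, 72.7%, 62.5%, 41.3% and 20.9% in KO1, and 57.9%, 54.8%, 43.4%, 24.8% and 5.16% in KO2. Member absence lay above the list in the 3 lowest bins of both lines, and below intergenic regions in every bin of KO2 and in the 3 highest of KO1. The bins held 42 to 90 member regions, and differences within bins were not tested. In the cKO the members were absent at 40.2%, 37.5%, 29.8%, 7.87% and 0%, near the 42.9%, 33.2%, 24.5%, 11.3% and 2.14% of all regions. Intergenic regions gave 38.2%, 25.0%, 15.1%, 9.05% and 2.37% in the cKO. Member absence there lay above intergenic regions in the 3 lowest bins and below them in the others. The cKO bins held 41 to 104 members each, with 70 in the highest.

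**Figure D4:**
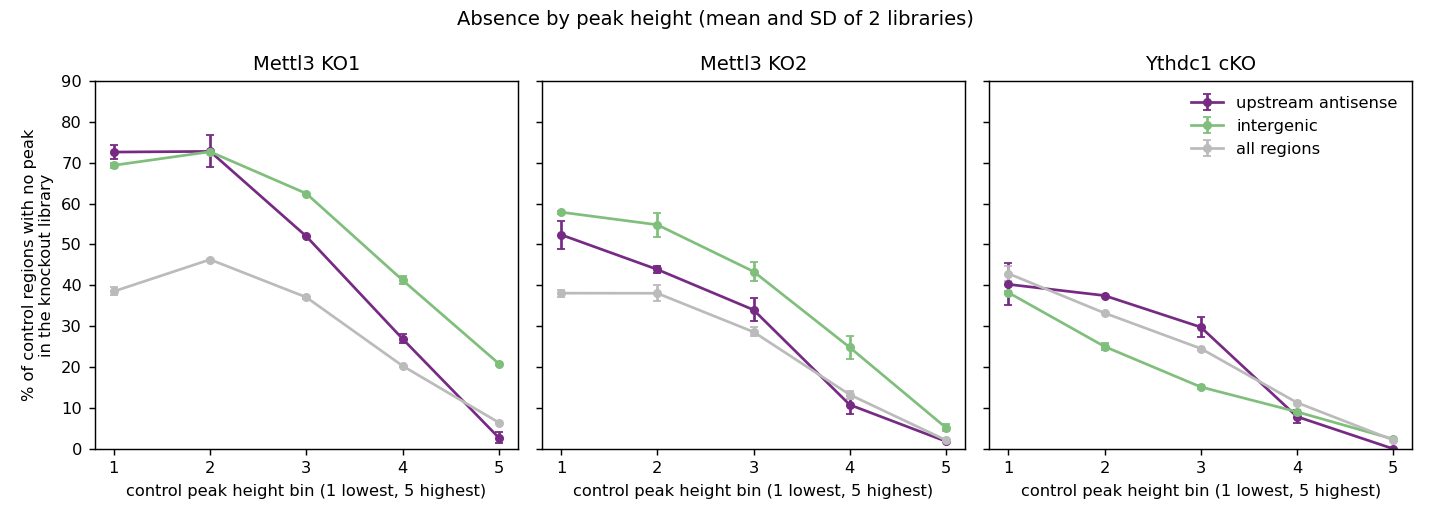
Share of control regions with no peak in a knockout library, in percent, by bin of control peak height, for upstream antisense, intergenic and all regions in KO1, KO2 and the cKO. Points are means and bars SDs of 2 libraries. Upstream antisense regions fall from 72.6% to 2.73% across the bins in KO1.

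The members were mostly called over a flat background. In 79.5% ± 4.05 of member peaks the background behind the p-value was the most common one of its library and strand, against 50.6% ± 6.29 of all peaks and 77.3% ± 5.62 of intergenic ones (SD, n = 10). The median pile-up at the summit was 79.5 to 93 reads for members and 105 to 120 for all peaks. A peak of the same library lay on the other strand in 19.9% ± 2.46 of members, against 0.607% ± 0.217 of intergenic and 5.11% ± 1.04 of all peaks. It did so in 32.5% to 42.3% of members inside an opposite-strand gene and in 4.21% to 9.43% of those outside genes. The part that imperfect strand separation has in the members inside genes was not tested. Within 5 kb downstream of a gene end on their own strand lay 15.5% ± 2.62 of members, against 21.7% ± 5.96 of intergenic and 32.4% ± 3.58 of same-strand upstream peaks.

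The genes next to these peaks mostly carried peaks on their own strand as well. Per library, 77.8% to 86.4% of the paired genes had a peak on their own strand, where 42.6% to 46.6% of the 21951 coding genes did. Untested, all 4 Mettl3 knockout libraries lay below both of their controls, at 77.8% and 78.3% in KO1 and 79.6% and 81.7% in KO2, against 85.4% and 82.6% in the control. The 52 genes paired with a region lost in the Mettl3 knockouts had 173 control regions of their own, of which 7 were lost (4.05%), where 8.52% were over all coding genes. In the Ythdc1 comparison 36 of 180 were lost (20.0%), where 18.1% were over all coding genes. Genes paired with a kept region lost 21 of their own 345 (6.09%) in the Mettl3 comparison. In the Ythdc1 comparison such genes lost 121 of 817 (14.8%).

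A peak in all 10 libraries was found for 113 of the 907 members (12.5%), low ones included, where 18.1% of all regions had one. The highest, by the lowest percentile over the 10 libraries, lay upstream of Atad2b, a bromodomain ATPase, outside all genes (chr12:4915779-4916264, minus strand). Its fold enrichment was 17.1 and 19.7 in KO1, 11.9 and 25.2 in KO2 and 15.7 and 14.5 in the Mettl3 control. In the cKO it was 12.6 and 11.6, against 16.2 and 12.0 in the Ythdc1 control. No library placed it below percentile 94.4 of its own list, so it was among the tallest peaks everywhere.

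St7l followed, with 10.2 and 12.1 in KO1, 14.1 and 19.1 in KO2 and 14.7 and 14.6 in the Mettl3 control, inside an opposite-strand gene and with a peak on the other strand. Flg, the epidermal barrier protein filaggrin, came next. It was paired with 8 regions, the most of any gene, all at starts within Flg, a gene of long near-identical repeats, so that read placement there is uncertain. Upf3a, a factor of nonsense-mediated decay, Arih1, a ubiquitin ligase, Cd2bp2, a spliceosomal protein, Gm16181 and Dvl2, a Wnt signal transducer, completed the first 8. All 8 were at or above percentile 80.1 in every library. Further down, Apobec3, a cytidine deaminase, Zfp574, Rgl2 and Ddx6, an RNA helicase of P-bodies, were also kept in both comparisons.

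Rnpc3, a protein of the minor spliceosome whose window is printed above, stood 101 bp from the start and outside all genes. It had 6.83-fold and 6.12-fold peaks in KO1, 12.6 and 9.86 in KO2 and 8.23 and 11.1 in the Mettl3 control. In the cKO it had 12.8 and 14.7, against 13.4 and 14.9 in the Ythdc1 control. Its percentile was lowest in KO1, at 80.4 and 74.8, and lay at 96.4 or above in the Ythdc1 libraries. Ncl, the nucleolar protein nucleolin, and Top1, topoisomerase I, also held peaks in all 10 libraries, from 3.21-fold to 6.84-fold and from 2.52-fold to 5.56-fold.

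Of regions lost in the Mettl3 knockouts, the 8 of greatest height all lay inside an opposite-strand gene, and 4 had a peak on the other strand. They were paired with Flg, 1700067K01Rik, Smarcad1, a chromatin remodeller, Slc38a1, an amino acid transporter, Brwd1, a bromodomain protein, Zfp646, a zinc finger protein, Itgav, integrin alpha V, and Nrxn2, a neurexin. Their heights ran from percentile 42.9 to 72.1. Smarcad1 (chr6:65042627-65042821, minus strand, 86 bp from the start) was without a peak in all 4 Mettl3 knockout libraries, against 5.18-fold and 5.37-fold peaks in the Mettl3 control. It had 4.70 and 3.39 in the cKO and 4.03 and 4.34 in the Ythdc1 control. Brwd1, 11 bp from the start, had none in the 4 knockout libraries, against 4.83 and 4.49 in the Mettl3 control.

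The 8 regions gained in the Mettl3 knockouts lay next to Rbpms2, an RNA-binding protein, Gm49496, Trpm4, a cation channel, Hist1h3g, a histone H3 gene, Coil, the Cajal body protein coilin, Rpl32, a ribosomal protein, and the mitochondrial genes mt-Cytb and mt-Co1. Rbpms2 (chr9:65628421-65628624, minus strand) had 4.81 and 4.45 in KO1 and 8.75 and 7.88 in KO2, and no peak in either Mettl3 control. It also had 5.81 and 5.61 in the cKO and 11.4 and 8.41 in the Ythdc1 control. Gm49496 likewise had a peak in all 8 libraries other than the Mettl3 controls. Coil, Rpl32, mt-Cytb and mt-Co1 were low, at or under percentile 39.5 in every knockout library. The mitochondrial genome is transcribed in full on both strands, so its 4 member regions are not promoter upstream RNA of the usual kind.

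**Figure D5:**
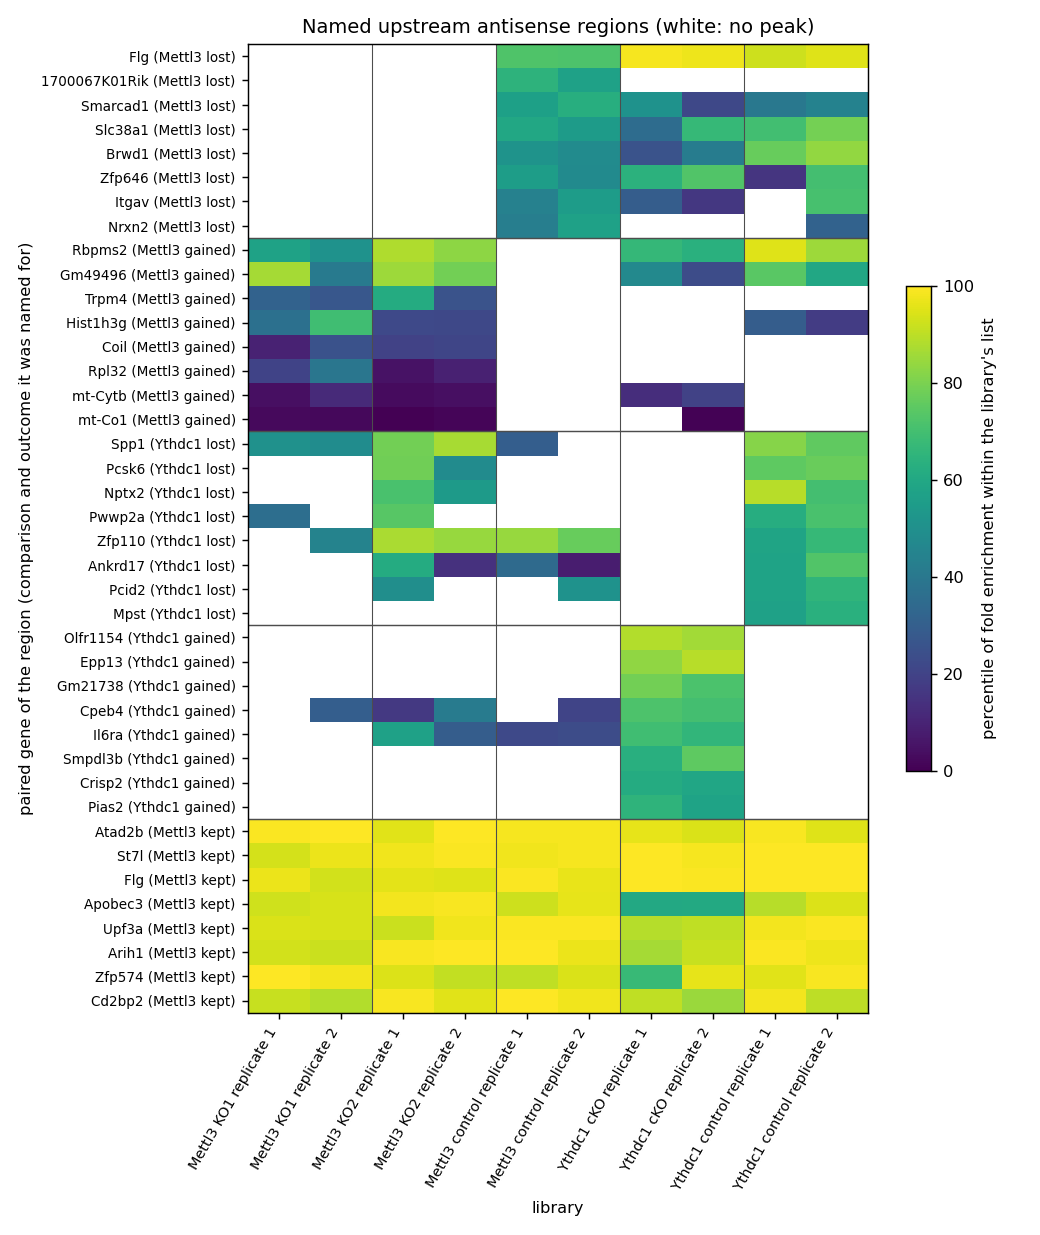
Percentile of fold enrichment within each library's own list (colour, 0 to 100) for the upstream antisense regions named by height, with libraries as columns and regions as rows, grouped by the comparison and outcome for which each was named. White means no overlapping peak. The Atad2b and St7l regions are at or above percentile 93.7 in every library, and the gained Olfr1154 and Epp13 regions appear in the cKO only.

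In the cKO, 6 of the 8 named lost regions lay outside genes, and none had a peak on the other strand. Spp1, osteopontin, led, with no peak in the cKO and 7.34-fold and 6.80-fold peaks in the Ythdc1 control. Pcsk6, a proprotein convertase, Nptx2, a neuronal pentraxin, Pwwp2a, a chromatin reader, Zfp110, Ankrd17, Pcid2, an mRNA export factor, and Mpst, a sulfurtransferase, followed. The Pcsk6 summit lay 24 bp downstream of the end of Gm20684, a gene on its own strand. The Nptx2 region (chr5:144545287-144545519, minus strand) had none in the cKO, against 8.96 and 6.17 in the Ythdc1 control. In the Mettl3 experiment it had 6.16 and 4.97 in KO2 and none in KO1 or the control.

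The 8 named regions gained in the cKO lay outside genes in 7 cases. They were next to Olfr1154, an olfactory receptor, Epp13, Gm21738, Cpeb4, a cytoplasmic polyadenylation factor, Il6ra, an interleukin 6 receptor subunit, Smpdl3b, Crisp2 and Pias2, a SUMO ligase. The Olfr1154 region (chr2:87906398-87906659, plus strand) had 9.23-fold and 8.68-fold peaks in the cKO and none in the other 8 libraries. Epp13 had 8.08 and 9.59 in the cKO and none elsewhere. Cpeb4 had 6.39 and 6.25 in the cKO and none in the Ythdc1 control, and peaks of 3.08 to 4.30 in 4 libraries of the Mettl3 experiment. Of these 8 regions, 6 had no peak in any Mettl3 library. The Il6ra summit lay 79 bp downstream of the end of Gm42809, a gene on its own strand.

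Across both experiments, 252 member regions had a peak in all 4 control libraries. Of these, 25 had none in the 4 Mettl3 knockout libraries (9.92%, background 6.60%) and 24 had none in the cKO (9.52%, background 6.87%). Both sets shared 6 regions, 24.0% of the Mettl3 and 25.0% of the cKO losses, where all regions gave 20.2% and 19.4%. They were 2.38% of the 252, at a background of 1.33%. The 6 lay upstream of Rbl1, Bud23, Chmp2a, Creld1, P3h3 and Rims2, and were named after their values were seen. Rbl1, the pocket protein p107 that restrains E2F, had none in any of the 6 knockout libraries, against 3.34 and 3.08 in the Mettl3 control and 3.78 and 3.24 in the Ythdc1 control. Its printed window, with 2 adjoining GGAC, is centred on a Ythdc1 control summit 222 bp from the start, and a Mettl3 control summit lay 496 bp from it. All 4 Rbl1 peaks were low, between percentile 15.4 and 34.4.

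Absence from KO1 with presence in KO2 was commoner. Of the 252 regions, 40 had no KO1 peak and a peak in both KO2 libraries (15.9%, background 5.88%), and 4 showed the reverse (1.59%, background 1.49%). Among the 40 were Pam16, Cdt1, Ddx5, Gapdh, Lefty2 and Src, also named after their values were seen. Cdt1, the replication licensing factor, had none in KO1 and 8.87 and 7.02 in KO2, against 8.10 and 6.31 in the Mettl3 control. Pam16, a mitochondrial import protein, had none in KO1 and 3.86 and 3.27 in KO2, against 5.46 and 9.55 in the control. Of regions with both peaks of 1 group and no other, KO1 had 1 (0.110%, background 1.74%), KO2 had 37 (4.08%, background 2.06%) and the cKO had 36 (3.97%, background 6.38%). Both Ythdc1 groups and no Mettl3 library shared 41 regions (4.52%, background 1.04%), and every group but KO1 shared 34 (3.75%, background 1.27%).

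Gene groups were small, so they are given by counts, to be read against the whole: 13.1% of all control regions were lost in the Mettl3 knockouts and 17.9% in the cKO, and 3.6% of coding genes were paired with a member. No developmental regulator, of 62 looked up (Hox, Gata and Pax genes and others, Sox2 not among them), was paired with a member region in either comparison, and with so few genes this count does not set the list apart. Of 32 pluripotency genes, 8 had a region in the Mettl3 comparison, with 2 of 5 control regions kept and none lost, and 4 had one in the Ythdc1 comparison, all 4 kept. Sox2, a core pluripotency factor, kept a region 20 bp from its start, inside an opposite-strand gene and with a peak on the other strand. It had 5.66 and 8.06 in KO1 and 3.58 and 10.5 in KO2, against 8.26 and 8.82 in the Mettl3 control. In the cKO it had 7.47 and 6.57, against 10.9 and 6.58 in the Ythdc1 control. Klf5 was also kept in both comparisons, and Lefty2 and Esrrb in the cKO.

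Genes of the m6A machinery gave 2 of 2 Mettl3 control regions kept, both at Alkbh5, an m6A demethylase. In the Ythdc1 comparison 3 of 4 were kept, at Alkbh5 and Wtap, a subunit of the writer complex, and 1 was lost, at Igf2bp2, a cytoplasmic m6A reader, with none in the cKO and 3.20 and 3.60 in the Ythdc1 control. Ythdc1 itself gained 2 antisense regions in the cKO, both at starts inside a gene. One (chr5:86802818-86803259, minus strand) had 2.91 and 2.97 in the cKO and no peak in the other 8 libraries. The other had 4.81 and 4.19 in the cKO and none in the Ythdc1 control, with peaks in 5 of 6 Mettl3 libraries.

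Elongation and pausing factors had no control region in the Mettl3 comparison and lost 2 of 3 in the cKO, at Polr2a, the largest subunit of RNA polymerase II, and Cdk9, the kinase of P-TEFb, where 17.9% of all control regions were lost. They also gained 1, at Nelfa, a subunit of the pausing complex NELF. Polr2a had none in the cKO, against 4.96 and 4.73 in the Ythdc1 control. In RNA decay and 3′ end processing, Pabpn1, the nuclear poly(A)-binding protein, was the only gene with a region. It was kept in the Mettl3 knockouts, with 4.44 in both KO1 libraries and 11.9 and 9.40 in KO2, against 6.03 and 3.82 in the Mettl3 control. It was lost in the cKO, with none there and 4.48 and 3.84 in the Ythdc1 control.

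Cell cycle and repair genes lost 1 of 7 control regions in each comparison, both times at Rbl1, and kept 2 of 7 in the Mettl3 knockouts and 5 of 7 in the cKO. Pcna was kept in the Mettl3 knockouts, with 3.94 and 3.48 in KO1 and 6.66 and 6.97 in KO2, against 7.31 and 4.92 in the Mettl3 control. Zinc finger genes lost 1 of 7 in the Mettl3 knockouts and 2 of 16 in the cKO. Chromatin regulators lost 0 of 2 in the Mettl3 knockouts and 1 of 4 in the cKO, at Trim28, a corepressor. Ribosomal protein genes lost none of 2 in the Mettl3 knockouts and none of 1 in the cKO. Immediate early genes had 1 region in all, at Klf6, which had peaks in 3 Mettl3 knockout libraries and in neither control.

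Replication-dependent histone genes lost 3 of 3 control regions in the cKO, at Hist1h3b, Hist1h3g and Hist1h3d, where 17.9% of all control regions were lost. All 3 lay inside a gene of the opposite strand, with a peak on the other strand and within 156 bp downstream of an own-strand gene end. The Hist1h3g region had none in the cKO, against 3.58 and 3.15 in the Ythdc1 control, and had 3.86, 5.59, 3.35 and 3.41 in the Mettl3 knockouts with none in their control. Histone genes are near-identical copies, so reads may be shared between them and these calls are uncertain.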

How the data were processed

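m6A immunoprecipitation was sequenced in 10 libraries, 2 per group, grouped by the labels' titles. Per the labels' protocols, chromatin-associated RNA was depleted of ribosomal RNA, fragmented, pulled down with a kit antibody and made into stranded libraries. The submitters' processing notes name HISAT2 2.1.0 as well as Trimmomatic 0.38, with CASAVA, the peak caller MACS2 and the build mm10. How MACS2 was run and whether inputs served as background is not given in the sources used here.

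Deposited narrowPeak lists were called per library and strand. Each peak carries the authors' display score, a fold enrichment (a ratio over background), the −log10 of its p-value and q-value, and a summit position. The authors kept peaks of at least 150 bp and −log10 q of at least 2.0, by the values. Fold enrichment was used only within its own list. A list holds no read counts, so absence of a peak is absence of a call at a given depth, and presence does not measure how much m6A an RNA carried. Fold and p-value were solved for a whole-read Poisson pile-up, which matched within 0.005 on the −log10 scale for 100% of member peaks, and gave the background values.

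Summits were set against 41538 starts of 21951 coding genes and 55450 genes of GENCODE M21 (python 3.11.15, pandas 2.3.3, scipy 1.17.1). Regions were merged per strand at 1 bp of overlap. A merged region counted as a member if any of its peaks did, and 124 of the 907 also held a peak that was not one. Library values were compared by exact two-sided permutation tests. Named regions are the 8 of greatest height per outcome and comparison with 1 per gene, and the 8 highest in all 10 libraries. A region that this rule names is not reported here. The scripts were tested on simulated data. The members and the gene lists were chosen with earlier results of these data known. Sequences are RefSeq's, GRCm38.p6, and 604 of the 790 paired genes matched its promoter table.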

Additional observations from a re-analysis of the deposited data

Results flagged for a closer look

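The Mettl3 lines moved in opposite directions against the same 2 control libraries. The share of upstream antisense peaks differed from the control by -0.295 percentage points in KO1 and by 0.0462 in KO2, with every KO1 library below and every KO2 library above both controls. The strand ratio did the same, by -0.273 in KO1 and by 0.0635 in KO2. The difference between the lines was not tested beyond its exact permutation p of 0.333, the smallest 2 against 2 libraries allow. KO1 also had the lowest share of intergenic peaks, and its part in the result was not tested.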

How the results depend on the processing

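Of 160 recomputed values, 134 kept their direction and side of the threshold, or stayed within 1.5 times the count given. None of the 96 with an exact p fell under 0.05, which neither design can reach, and the smallest was 0.0667. With KO2 alone the Mettl3 differences turned positive, to 0.0462 in share, 1.5 in number and 0.0635 in strand ratio. With summits up to 5 kb the Ythdc1 difference in number became 0.5, and 83 regions were lost and 16 gained in the Mettl3 knockouts and 118 gained in the cKO. Within 1 kb 5 were gained in the Mettl3 knockouts, and 4 without peaks near gene ends. If 1 knockout library may differ, 89 were lost and 20 gained in the Mettl3 knockouts, and 113 lost and 139 gained in the cKO. Outside all genes, chosen after seeing the data, 26 were lost and 4 gained in the Mettl3 knockouts and 40 lost in the cKO. KO1 alone gave 130 lost, on regions merged anew without KO2, and KO2 alone 75 gained. The cause was not tested, beyond what these definitions add or leave out.

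Leaving out each library in turn gave 57 to 96 lost and 8 to 14 gained in the Mettl3 knockouts, and 88 to 125 lost and 74 to 101 gained in the cKO, since fewer libraries then had to meet the rule. Counts moved by over 1.5 times without either KO1 library (14 and 13 gained), either Mettl3 control (90 and 96 lost), either cKO library (101 and 93 gained) and either Ythdc1 control (117 and 125 lost). The knockout minus control difference in the near-start ratio stayed between -0.749 and -0.570 for Mettl3 and between -1.45 and -0.978 for Ythdc1.

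Replicate numbers did not pair the libraries (correlations of same-numbered deviations 0.0049 to 0.0355). With the replicate block the exact p was 0.556 for the Mettl3 share (-0.124), 0.444 for its number, 0.667 for its strand ratio and 0.111 for its near-start ratio, and 0.5 for each Ythdc1 value. The number of peaks a library can show rises with its depth, which the lists give only through their background.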
